A study of Homo sapiens with 24 samples.

Results

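Small nucleolar RNA (snoRNA) host genes were examined in K562 cells, an established human leukaemia line with erythroid features, over 46 h after size separation. The 10 genes listed as hosts were GAS5, ZFAS1, SNHG1, SNHG3, SNHG5, SNHG6, SNHG7, SNHG8, SNHG12 and SNHG15. Their symbols were looked up by Ensembl identifier, and 10 of 10 were present among the 12285 genes of the expression table. The lookup used no measured value, but the list itself was drawn up with earlier results of these data known.

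The host genes are transcribed and spliced like messenger RNAs, but the exons of the genes described here encode no long protein. The snoRNAs lie in the introns and are trimmed out of them. Box C/D snoRNAs guide ribose methylation and box H/ACA snoRNAs guide pseudouridylation, mostly of ribosomal RNA. The spliced exons of several hosts, GAS5 among them, are engaged by ribosomes and removed by nonsense-mediated decay, so that the host transcript turns over rapidly while translation runs. Several host genes begin with the terminal oligopyrimidine tract that is known from ribosomal protein genes. GAS5 takes its name from its accumulation in growth-arrested cells.

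All cells were of 1 untreated line grown in RPMI with 10% bovine calf serum and antibiotics, synchronised by centrifugal elutriation, which separates cells by size, and then followed in culture. RNA was sequenced from 1 library at each of 24 time points, every 2 h from 0 h to 46 h. The study looked for time points at which many genes depart from their neighbours, and it named 16 h and 18 h, and more mildly 32 h. There were no replicates, so each value below comes from 1 library, and the spread given is that between time points of 1 culture. In bulk RNA, fewer cells carrying a transcript and less of it per cell cannot be told apart.

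The summed FPKM (fragments scaled to transcript length and to the size of the library) of the table reached 566247 at 16 h and 591309 at 18 h, while other time points ran from 456791 to 520382. The read depth of the libraries is unknown. Of the K562 erythroid markers fixed for the check, 11 of 11 were in the table, with a summed level of 2998 to 8098 FPKM. The table held COL1A2 alone of 4 fibroblast markers (1.70 to 3.94 FPKM) and LYZ alone of 3 myeloid markers (10.7 to 28.2 FPKM).

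Promoters are shown because the pyrimidine start known from ribosomal protein genes, and a TATA element ahead of it, can be read there. RefSeq promoters of GRCh38.p14 were matched by symbol for 8 of the 10 genes, not for SNHG6 and SNHG15. Each line gives 45 bases before the annotated start and 30 bases from it, 5′ to 3′ on the strand of the gene. Capitals mark TATAA before the start, and the run of C and T that begins at the start with a C.

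ZFAS1, chr20:49278597-49278671, plus strand: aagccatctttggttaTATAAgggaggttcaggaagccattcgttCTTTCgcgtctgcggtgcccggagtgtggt
SNHG5, chr6:85678704-85678778, minus strand: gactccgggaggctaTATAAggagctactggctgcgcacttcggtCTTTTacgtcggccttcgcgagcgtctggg
SNHG12, chr1:28581844-28581918, minus strand: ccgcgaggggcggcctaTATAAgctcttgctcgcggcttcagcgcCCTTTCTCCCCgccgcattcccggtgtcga
SNHG7, chr9:136728155-136728229, minus strand: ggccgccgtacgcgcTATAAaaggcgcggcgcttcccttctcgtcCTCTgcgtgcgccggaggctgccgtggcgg
SNHG8, chr4:118278717-118278791, plus strand: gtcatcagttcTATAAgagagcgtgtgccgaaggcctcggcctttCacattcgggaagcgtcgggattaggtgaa
SNHG1, chr11:62855856-62855930, minus strand: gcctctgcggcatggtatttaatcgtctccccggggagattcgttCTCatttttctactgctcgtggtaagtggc
SNHG3, chr1:28505898-28505972, plus strand: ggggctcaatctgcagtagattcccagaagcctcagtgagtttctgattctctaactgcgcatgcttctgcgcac
GAS5, chr1:173869016-173869090, minus strand: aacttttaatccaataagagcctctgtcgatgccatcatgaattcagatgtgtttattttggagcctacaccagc

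TATAA was present on the gene's strand in the 45 bases before the start in 5 of 8 host genes, 28 to 34 bases ahead of it. These were ZFAS1, SNHG5, SNHG7, SNHG8 and SNHG12. GAS5 and SNHG3 held neither TATAA nor a marked run. SNHG1 held no TATAA and a run of 3 bases, too short for the pyrimidine start counted below. TATAA was found in 4.52% of 35116 promoters, in 7 of 78 ribosomal protein genes (8.97%) and in 1 of 13 other non-coding snoRNA hosts (7.69%). On either strand it was found in 5 of 8 host genes and 5.78% of promoters. A start at C followed by 4 or more C or T was present in ZFAS1, SNHG5 and SNHG12, against 4.07% of all promoters, 46 of 78 ribosomal protein genes (59.0%) and 3 of 13 other non-coding hosts. The longest run was that of SNHG12, with 11 bases. TATAA and the pyrimidine start together were found in 3 of 8 host genes and in 1 of 13 other non-coding hosts (7.69%). They were found together in 6 of 78 ribosomal protein genes and in 38 of all promoters (0.108%). The promoter counts are matches of letters at 1 annotated start per gene, and the starts used in these cells were not measured. Transcripts annotated in GENCODE 29 began with the pyrimidine start in 6 of 29 cases for GAS5 and 1 of 3 for SNHG3. It was 1 of 25 for SNHG1, 1 of 5 for SNHG8 and 3 of 5 for SNHG6. For SNHG7 and SNHG15 it was 0, against 2.66% of the transcripts of all genes.

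The host genes were abundant. With 16 h and 18 h left out, means over 22 time points ran from 46.3 FPKM for SNHG15 to 408 FPKM for GAS5, and over all time points the 10 genes lay between the 79.4 and the 98.8 percentile of the table. GAS5, host of box C/D snoRNAs, had 408 ± 28.5 FPKM (SD, n = 22 time points). SNHG5, which hosts the U50 snoRNAs, had 369 ± 56.0, and SNHG1, the U22 host gene, 334 ± 64.3 FPKM.

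The next levels were those of SNHG3, host of the H/ACA snoRNA U17, at 187 ± 32.6 FPKM, and SNHG6, host of the C/D snoRNA U87, at 179 ± 27.1 FPKM. SNHG8, host of the H/ACA snoRNA SNORA24, had 144 ± 17 FPKM and ZFAS1, host of the SNORD12 family, 143 ± 15.0 FPKM. Lowest were SNHG12, which hosts both classes, at 82.3 ± 14.2 FPKM, and the H/ACA hosts SNHG7 at 49.6 ± 11.3 and SNHG15 at 46.3 ± 7.01 FPKM. FPKM is scaled to length, and the genes were set in order of FPKM. Reads inside a host can be assigned to either gene, so a place in this order may be off. Of 9 neighbouring pairs in that order, 4 differed by more than the larger SD and kept their order at 22 of 22 time points: SNHG1 above SNHG3, SNHG6 above SNHG8, ZFAS1 above SNHG12, and SNHG12 above SNHG7. The other 5 pairs did not differ beyond their spread, as with SNHG8 and ZFAS1, where SNHG8 was higher at 11 of 22 time points.

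**Figure D1:**
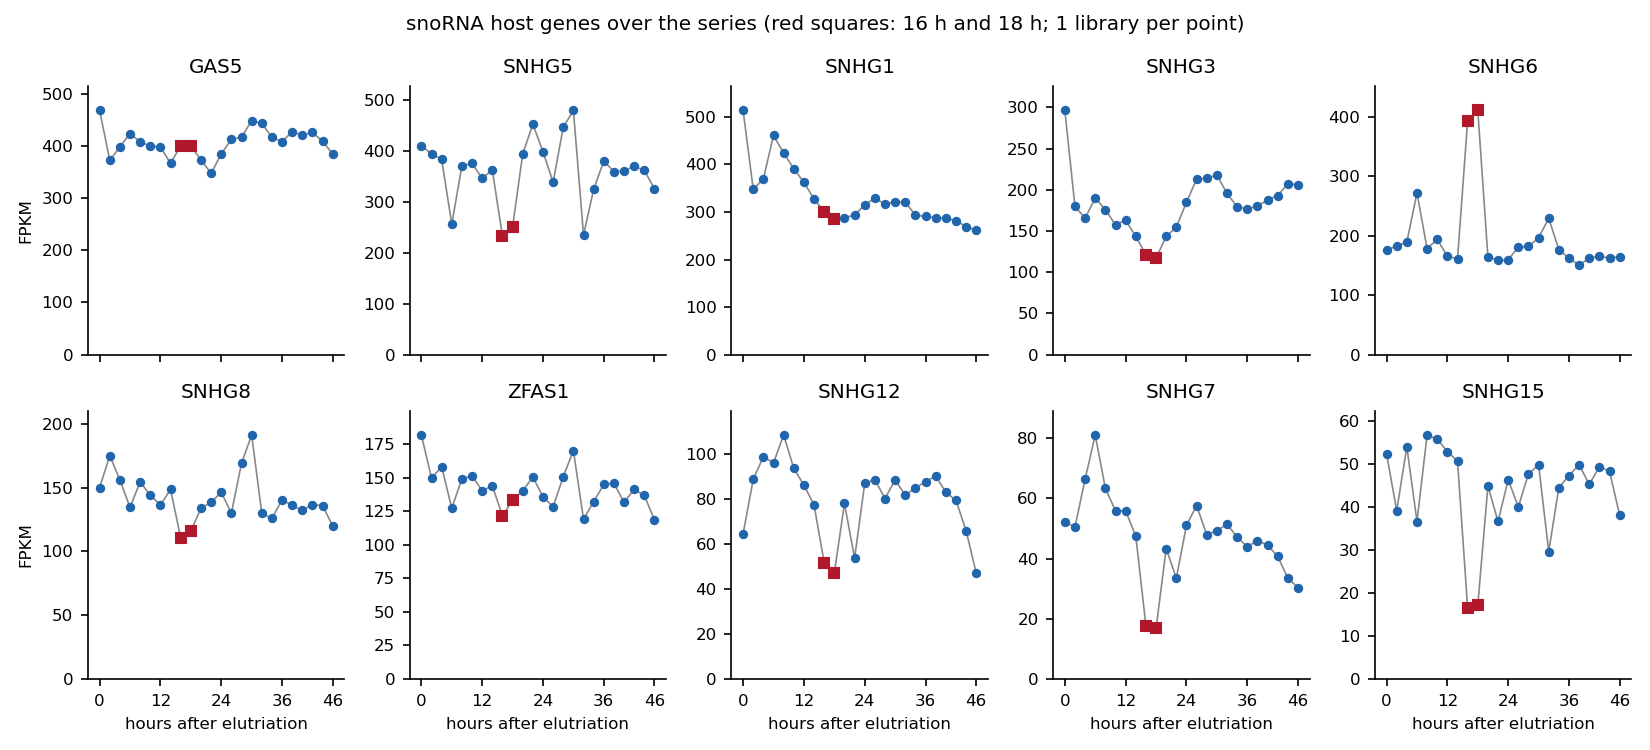
FPKM of each host gene (vertical axes from 0, a scale for each gene) against hours after elutriation, with 1 library per point and 16 h and 18 h as red squares. SNHG6 rose to 393 and 411 FPKM at these 2 hours, SNHG7 and SNHG15 lay at 16.5 to 17.7 FPKM, and GAS5 stayed between 348 and 469 FPKM throughout.

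GAS5 varied least. Over the same 22 time points it ran from 348 FPKM at 22 h to 469 FPKM at 0 h, with a coefficient of variation of 6.98%, against a median of 14.2% for all genes. SNHG7 varied most, from 30.3 FPKM at 46 h to 81.0 FPKM at 6 h (22.8%). SNHG12 ranged from 47.1 FPKM at 46 h to 109 FPKM at 8 h. The highest level was at 0 h for GAS5, ZFAS1, SNHG1 and SNHG3, and the lowest at 46 h for SNHG1, SNHG8, ZFAS1, SNHG12 and SNHG7.

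At 16 h and 18 h the host genes moved in both directions. To measure this, the mean log2(FPKM + 1) of both time points was set against a line drawn from 14 h to 20 h, and the distance is called the deviation. The same measure at 16 other consecutive pairs of time points served as the gene's own range. This scale slightly understates changes, and with 1 library per time point there is no test.

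SNHG6 rose. Its level was 161 FPKM at 14 h, 393 at 16 h, then 411 at 18 h, and again 164 at 20 h. Both hours were above each of the 22 other time points, which reached at most 272 FPKM. The deviation was 1.30 (2.46-fold), against −0.23 to 0.33 in its reference pairs.

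SNHG15 and SNHG7 fell. SNHG15 went from 50.8 FPKM at 14 h to 16.5 at 16 h and 17.2 at 18 h, and back to 44.9 at 20 h, a deviation of −1.45 against −0.41 to 0.49. SNHG7 had 47.5, 17.7, 16.8 and 43.3 FPKM at these hours, a deviation of −1.35 against −0.27 to 0.43. Both genes were lower at 16 h and 18 h than at any of the other 22 time points, where they stayed at or above 29.7 and 30.3 FPKM.

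SNHG12 and SNHG5 lay lower by less than 2-fold. SNHG12 had 77.4, 51.7, 47.1 and 78.1 FPKM from 14 h to 20 h and deviated by −0.64, against −0.28 to 0.41. Its 2 values overlapped those of the other time points, since it had 47.1 FPKM also at 46 h. SNHG5 had 363, 233, 251 and 394 FPKM and deviated by −0.64, just past its range of −0.63 to 0.71, whose lower end was the pair of 32 h and 34 h.

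The remaining genes stayed near their flanks. GAS5 had 367, 401, 400 and 374 FPKM, and its deviation of 0.11 lay just above its narrow range of −0.21 to 0.10. SNHG1 (−0.07), ZFAS1 (−0.16), SNHG3 (−0.27) and SNHG8 (−0.31) lay within their ranges. The direction of GAS5 depended on the scaling, and it was −0.12 after each time point had been scaled to its upper quartile.

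**Figure D2:**
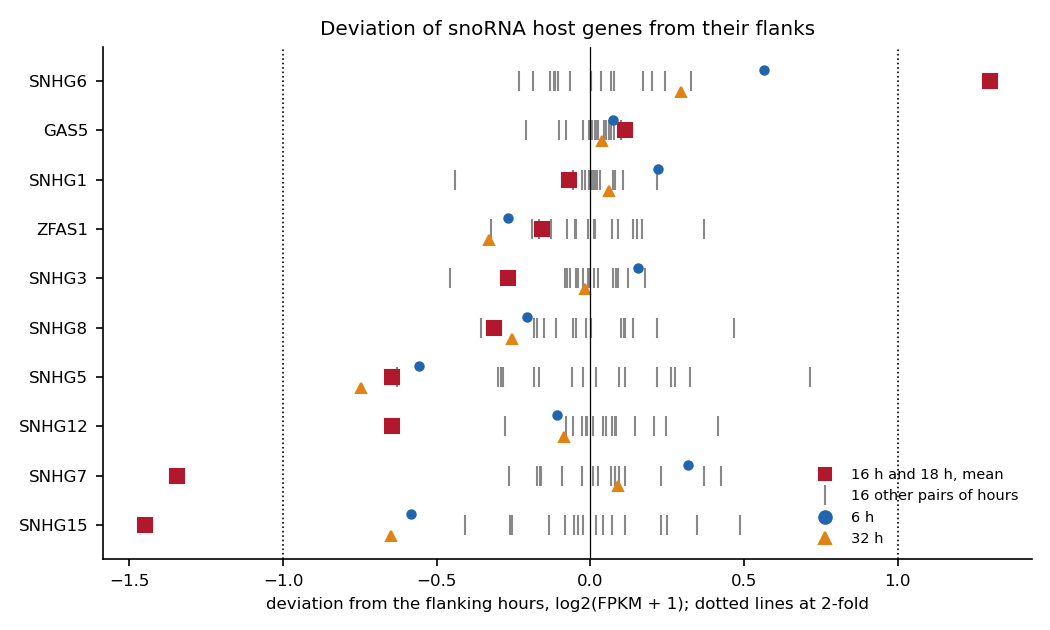
Deviation of each host gene from its flanking hours on the log2(FPKM + 1) scale, with the mean of 16 h and 18 h as red squares, the 16 other pairs as grey ticks, 6 h as blue circles and 32 h as orange triangles. SNHG6 at 1.30, SNHG7 at −1.35 and SNHG15 at −1.45 lie past the dotted lines at 2-fold.

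Thus 1 of 10 host genes was at least 2-fold above its flanks, where 8.95% of the 12253 genes averaging 1 FPKM or more were, and 2 were at least 2-fold below, where 7.11% were. With 10 genes, counts of 1 and 2 lie near these shares and set the hosts apart as a list in neither direction. The genes above their whole own range were SNHG6 and GAS5 (2 of 10, against 43.6% of all genes). Those below it were SNHG5, SNHG7, SNHG12 and SNHG15 (4 of 10, against 28.0%). The median deviation was −0.29 for the host genes and 0.14 for all genes. Scaling shifted all genes, to a median of 0.03 after centring and −0.06 after upper-quartile scaling, and the host genes to −0.40 and −0.52. The same 3 genes passed 2-fold under both.

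Base composition differed among these genes. The annotated transcripts of SNHG6 had the lowest mean GC content of the 10 genes (41.6%), and those of SNHG7 (59.4%) and SNHG15 (54.3%) the highest, against a median of 49.2% for all genes. The order did not hold throughout, since SNHG3 (43.2%), GAS5 (43.6%), SNHG1 (44.5%) and SNHG5 (44.6%) were nearly as low in GC as SNHG6 and did not rise by 2-fold. With the smooth trend on GC content removed from the deviations, SNHG6 was at 0.77 and SNHG7 at −0.96, both inside 2-fold, SNHG15 at −1.35 and SNHG5 at −1.05. GAS5 was then at −0.34, SNHG3 at −0.74 and SNHG8 at −0.72. The median of the host genes was −0.71, with 9 of 10 below 0, against 0.00023 for all genes. The nuclear RNA MALAT1, picked after its values were seen, had 1100, 11073, 12319 and 851 FPKM from 14 h to 20 h. The part of RNA quality, library preparation or the source of the RNA in these values was not tested. The authors' cleaned table holds scores whose method the labels do not name. Its values have the form of Z-scores after quantile normalization. There SNHG6 scored 1.66 at 16 h and 0.95 at 18 h, against −0.55 at 14 h and −0.61 at 20 h. SNHG15 scored −1.49 and −1.15, against 0.95 and 0.39.

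The same genes were uneven at other hours. At 32 h, 0 of 10 host genes passed 2-fold against the average of 30 h and 34 h, where 1.46% of all genes did. SNHG5 had 480 FPKM at 30 h, 235 at 32 h and 325 at 34 h, a deviation of −0.75 against −0.32 to 0.57 at 16 other time points. SNHG15 had 49.9, 29.7 and 44.6 FPKM, a deviation of −0.65 against −0.43 to 0.50. Both were past 1.5-fold and below their ranges.

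At 6 h, an hour singled out after its values were seen, the pattern was similar. SNHG5 had 384 FPKM at 4 h, 256 at 6 h and 371 at 8 h, a deviation of −0.56, and SNHG15 had 54.1, 36.7 and 56.9 FPKM, a deviation of −0.58. SNHG6 was higher at both hours. Its levels were 272 FPKM (6 h) and 229 FPKM (32 h), against 150 to 197 FPKM at the other 20 time points outside 16 h and 18 h. The directions of SNHG5, SNHG15 and SNHG6 at 6 h and 32 h were thus those at 16 h and 18 h. SNHG7 was not low at these hours, with deviations of 0.32 at 6 h and 0.09 at 32 h.

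At 28 h and 30 h, also singled out after their values were seen, SNHG5 was high. It had 447 and 480 FPKM, above the 325 to 411 FPKM of the 17 time points outside 6 h, 16 h, 18 h, 22 h, 28 h, 30 h and 32 h. SNHG8 had 169 and 191 FPKM, of which the second was above its range of 120 to 175 FPKM at those 17 time points. ZFAS1 had 151 and 170 FPKM, within its range of 118 to 182 FPKM. SNHG15 had 47.8 and 49.9 FPKM, near its median of 48.4 FPKM there, and was not high. The deviations of this pair were 0.71, 0.47, 0.37 and 0.49, in each case the highest of the 16 reference pairs of the gene, but they rest in part on the 32 h flank, where each gene lay below the mean of 30 h and 34 h. At 22 h, SNHG12 had 53.7 FPKM, between 78.1 at 20 h and 87.0 at 24 h, and SNHG7 had 33.5 FPKM, between 43.3 and 51.0.

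Order in time was assessed with the JTK statistic, which takes the best Kendall score of a gene against a 24 h cosine at 12 phases. A permutation p was drawn from 100000 orderings of the time points, with Benjamini–Hochberg adjustment across the whole table. It passed 0.05 in 3 of 10 host genes, against 11.9% of all genes. A slow drift lowers this p as well as a cycle does.

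SNHG7 was called with an adjusted permutation p of 0.00223 and a fitted peak at 6 h. Its highest levels were 81.0 FPKM at 6 h on the first day and 57.5 FPKM at 26 h on the second. SNHG1 was called at an adjusted permutation p of 0.0177, with a phase of 6 h, and SNHG12 at 0.0264, with a phase of 8 h. The profiles of SNHG7 and SNHG1 combined an early high with a fall over the series. The other 7 host genes had adjusted permutation p values of 0.109 (SNHG8) to 0.512 (GAS5 and ZFAS1).

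In the cleaned table SNHG12 and SNHG1 lost their calls, with adjusted permutation p values of 0.0904 and 0.0813. SNHG12 lost it also after upper-quartile scaling (adjusted permutation p = 0.0870) and without the 7 irregular hours (0.0580), an alternative chosen after seeing the data. SNHG1 lost it also with a 28 h period (adjusted permutation p = 0.0709). Without 16 h and 18 h, SNHG6 was called as well, with an adjusted permutation p of 0.00790, which gave 4 of 10 against 16.2% of all genes. With a period of 20 h, 0 host genes were called, against 2.74% of all genes.

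Each hour of a 24 h cycle was sampled on both days, so the second day was compared with the first in 10 matched pairs of hours, without the pairs that hold 16 h or 18 h. The limma fit on log2(FPKM + 1) had the hour as a block, and its p was Benjamini–Hochberg adjusted over 12253 genes. Since successive time points share 1 culture, the p is too small if their deviations are shared.

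SNHG1 fell. Its first-day values had a lowest, median and highest of 288, 366 and 514 FPKM, and its second-day values of 262, 304 and 329 FPKM. The ranges overlapped, but the second day was lower in 10 of 10 pairs. The mean was 378 ± 72.0 FPKM on the first day and 301 ± 23.4 FPKM on the second (SD, n = 10 time points). The difference was −0.31 (SE 0.064, limma adjusted p = 0.00652). With the 6 pairs that hold no irregular hour, chosen after seeing the data, it was −0.30 and the call was lost (limma adjusted p = 0.0727).

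SNHG7 also fell, from 54.9 ± 13.2 to 45.8 ± 8.23 FPKM, in 9 of 10 pairs. The difference was −0.24 (SE 0.076, limma adjusted p = 0.0417), and the first-day range of 33.5 to 81.0 FPKM overlapped the second-day range of 30.3 to 57.5 FPKM. This call was lost on leaving out 7 of the 10 pairs singly, and the difference was 0.0069 with the pairs of 16 h and 18 h included. The count was thus 2 lower, against 6.80% of all genes, and 0 higher, against 12.6%. Among all genes, 1547 were called higher and 833 lower as deposited, and 1262 and 1261 after centring, while the same host genes were called.

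The other 8 host genes did not pass the test. SNHG3 had 177 ± 44.6 FPKM on the first day and 197 ± 16.0 on the second, and was higher in 9 of 10 pairs (difference 0.19, limma adjusted p = 0.190). The exception was the pair of 0 h and 24 h, with 296 and 185 FPKM, and without it the difference was 0.28 (limma adjusted p = 0.00389). GAS5 was also higher in 9 of 10 pairs, by 0.07 (95% interval −0.04 to 0.18, limma adjusted p = 0.341). SNHG5, SNHG6, SNHG8, SNHG12, ZFAS1 and SNHG15 differed by −0.05 to −0.11, with intervals that included 0.

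**Figure D3:**
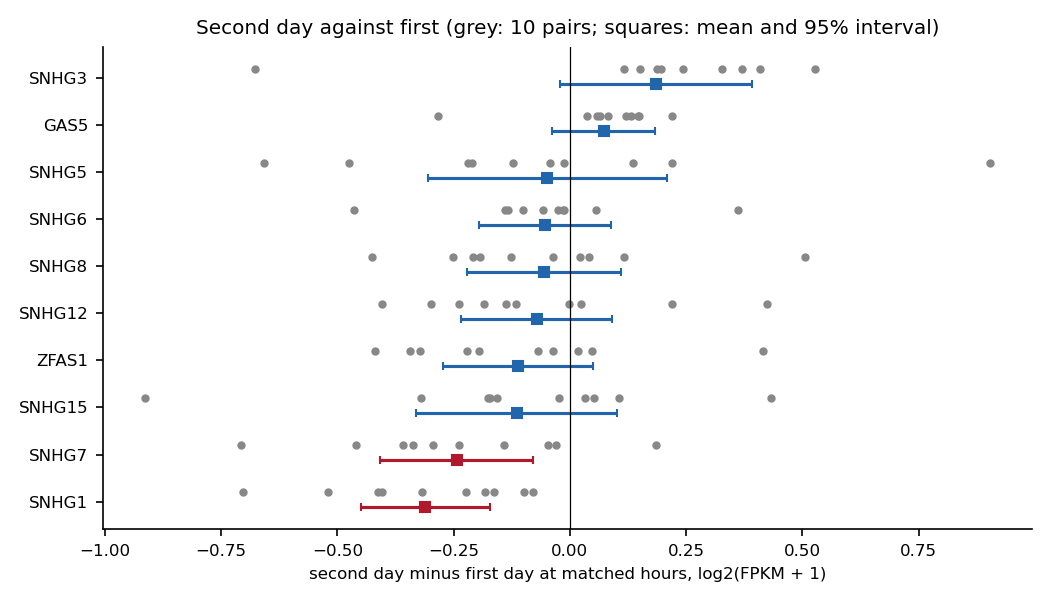
Second day minus first day at 10 matched hours on the log2(FPKM + 1) scale, with each pair as a grey point and the limma mean with its 95% interval as a square, red where the adjusted p passed 0.05. SNHG1 lies below 0 in 10 of 10 pairs and SNHG7 in 9, and the intervals of the other 8 genes cross 0.

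Genes that share a feature with the hosts were then counted at 16 h and 18 h, as lists chosen with earlier results of these data known. Among all 12253 genes averaging 1 FPKM or more, 7114 lay above their flanks and 5139 below. For at least 2-fold, the shares of all genes were 8.95% above and 7.11% below. Of 17 other non-coding snoRNA hosts, 15 were in the table. They lay below their flanks in 15 of 15 cases in the deposited values, with a median of −0.99. The 15 of 15 held with a pseudocount of 0.1, centring, upper-quartile scaling, wider flanks or the GC trend removed. In the deposited values, 7 of the 15 were at least 2-fold below and 0 above. The lowest were SNHG25, at 10.7 FPKM at 14 h, 1.13 at 16 h, listed at 0 at 18 h and 16.5 at 20 h, and SNHG9, at 15.5, 2.38, 0.26 and 17.1 FPKM. The sizes of these falls rest on the pseudocount. SNHG16 (−0.01) and EPB41L4A-AS1 (−0.11) were the highest of the list.

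Protein-coding genes that host snoRNAs, ribosomal proteins apart, lay higher. Of 19, 16 were above their flanks and 3 below, and 14 were above after centring and 12 after upper-quartile scaling. The median was 0.56 (0.33 after upper-quartile scaling), and 4 were at least 2-fold above (2 after centring, upper-quartile scaling or removal of the GC trend). CNOT1, the scaffold of the deadenylase complex, had 127, 347, 452 and 127 FPKM from 14 h to 20 h. HSPA9, the mitochondrial heat shock protein, had 371, 884, 934 and 346 FPKM. NOP56, itself a core protein of C/D particles, was lowest at −0.12.

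Cytosolic ribosomal protein genes mostly lay lower. Of 79, 63 were below their flanks and 16 above, with a median of −0.75, and 26 were at least 2-fold below and 2 above. RPL10, of the large subunit, had 684, 125, 93.0 and 604 FPKM from 14 h to 20 h. RPS25 went the other way, with 495, 2264, 2840 and 550 FPKM, as did RPL23, with 904, 1891, 1925 and 847 FPKM. Many of these genes have near-identical pseudogene copies, so reads can be split between copies and single values are uncertain.

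The 14 other translation genes known for the oligopyrimidine tract had a median of 0.23, which was −0.0050 after upper-quartile scaling. PABPC1, the poly(A)-binding protein, deviated by 1.30 and RACK1, a protein of the small ribosomal subunit, by −0.65. Of 17 genes for snoRNP core and assembly proteins, 4 were at least 2-fold above and 1 below, with a median of 0.43. After upper-quartile scaling the median was 0.19, with 3 above and 2 below, and with the GC trend removed it was 0.19, with 0 above and 1 below. RPAP3, a cofactor of particle assembly, was highest at 1.49, and NHP2, a core protein of H/ACA particles, lowest at −1.25. Of 15 nonsense-mediated decay factors, 4 were at least 2-fold above and 0 below, with a median of 0.21 that became −0.02 after upper-quartile scaling. UPF3B was highest at 1.68 and EIF4A3, of the exon junction complex, lowest at −0.98. The 11 erythroid markers had a median of −1.18.

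**Figure D4:**
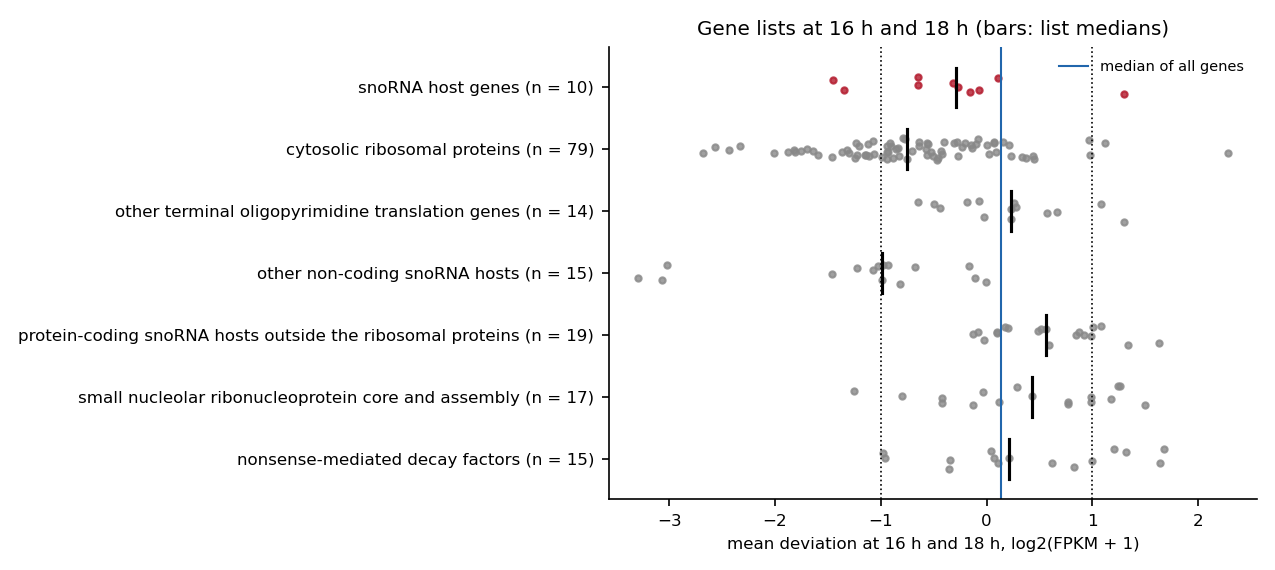
Mean deviation at 16 h and 18 h on the log2(FPKM + 1) scale for each gene of the host list (red) and of 6 related lists (grey), with list medians as black bars and the median of all genes as a blue line. Other non-coding hosts lie at −0.0050 or below, ribosomal protein genes have a median of −0.75 and protein-coding hosts one of 0.56.

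Between the days, limma called 6.80% of all genes lower on the second and 12.6% higher, the shares against which the lists are given. Of 79 ribosomal protein genes, 21 were lower on the second day by limma and 0 higher. RPS29 had 462 FPKM on the first day and 311 on the second (−0.57, limma adjusted p = 0.0132). Of 15 other non-coding hosts, SNHG17 (35.2 and 28.1 FPKM, −0.33, limma adjusted p = 0.0159) and SNHG11 (−0.23, limma adjusted p = 0.0424) were lower and SNHG30 (0.40, limma adjusted p = 0.0418) was higher. Of the decay factors 5 of 15 were lower and 0 higher, among them EIF4A3, at 103 and 81.4 FPKM (−0.34, limma adjusted p = 0.0196). The snoRNP list had 0 of 17 in either direction. Of the protein-coding hosts 1 of 19 was lower, TOMM20 (−0.17, limma adjusted p = 0.0366), and of the other oligopyrimidine genes 1 of 14, RACK1 (−0.21, limma adjusted p = 0.00621). Markers of cell types moved between the days too. LYZ, of myeloid cells, had 13.6 and 24.9 FPKM (0.85, limma adjusted p = 5.64e-05), and COL1A2, of fibroblasts, 2.29 and 3.38 FPKM (0.42, limma adjusted p = 0.00582). Of the 11 erythroid markers 2 were lower and 0 higher, HBZ (−0.50, limma adjusted p = 0.00529) and GYPB (−0.23, limma adjusted p = 0.0418). Their part in the differences between days was not tested.

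The snoRNAs inside the hosts were sparsely measured. The GENCODE 29 annotation used here placed 25 snoRNA genes inside 9 of the 10 hosts, some of them under the same name. GAS5 was the host without one in this annotation, so its snoRNAs are not covered here. Of the 25 snoRNA genes, 7, in 4 hosts, were in the table. The sequences of 3 of these snoRNAs, from GENCODE 29, are given 5′ to 3′ because their levels are described next. Capitals mark the first exact TGATGA, the letters of the C box, where there is one, and the last CTGA, those of the D box.

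SNORD12B: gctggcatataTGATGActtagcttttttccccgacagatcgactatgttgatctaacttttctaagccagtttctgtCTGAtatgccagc
SNORD30: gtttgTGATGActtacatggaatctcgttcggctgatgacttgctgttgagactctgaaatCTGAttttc
SNORD28: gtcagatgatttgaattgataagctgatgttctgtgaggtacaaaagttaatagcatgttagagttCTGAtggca

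SNORD12B, inside ZFAS1, had 7.33 FPKM at 14 h, was listed at 0 at 16 h, and had 1.54 at 18 h and 18.2 at 20 h. SNORD28, inside SNHG1, had 24.7, 2.25, 7.47 and 19.7 FPKM at these hours, while SNHG1 had 327, 301, 285 and 288. SNORA73B, inside SNHG3, had 24.2, 6.46, 4.89 and 25.1 FPKM, a deviation of −1.95, while SNHG3 deviated by −0.27. At 16 h and 18 h these 3 snoRNAs were below both flanks, while the deviations of their hosts lay within the hosts' own ranges. No such range was set for the snoRNAs. At the other 22 time points SNORD12B fell to 1.47 FPKM and SNORD28 to 2.56 FPKM, below their values at 18 h. SNORA73B stayed at or above 18.1 FPKM there.

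SNORD99, inside SNHG12, had 23.3, 10.5, 21 and 16.2 FPKM and deviated by −0.36. SNORD12C, also in ZFAS1, had a mean of 2.03 FPKM and was listed at 0 in 6 of 24 libraries, and SNORD22, in SNHG1, had a mean of 3.72 FPKM. SNORD30, in SNHG1, had 4.29 FPKM at 14 h, was listed at 0 at 16 h and 18 h, and had 4.49 at 20 h. Its deviation was −2.43. SNORD30 was lower on the second day (−1.03, limma adjusted p = 0.0277), but it had a mean of 2.34 FPKM and was listed at 0 in 8 of 24 libraries. The other 6 snoRNAs did not pass the test between days. RNAs this short can be lost in library preparation, and reads inside a host can be assigned to either gene, so their values are uncertain.

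A further annotated entry lies inside ZFAS1, on the same strand, and was picked after its values were seen. ENSG00000277967, annotated as miscellaneous RNA under the name RF02217, has 87 bases and had 97.9 to 233 FPKM. It may be a stretch of the ZFAS1 transcript and not an RNA of its own, which was not tested. Per ZFAS1 FPKM it was 0.576 to 0.708 at 22 h, 28 h and 30 h, 1.55 to 1.83 at 6 h, 16 h, 18 h and 32 h, and 0.981 to 1.48 at the other 17 time points. The 3 sets of hours did not overlap in this ratio. Their hours were set after the values were seen, so this is a description. ZFAS1 itself had 150 to 170 FPKM at the first set and 119 to 133 at the second, and 118 to 182 at the other 17 time points. The inner entry had 97.9 to 106 and 206 to 233 FPKM at these sets, and 143 to 224 at the other time points. The level of neither entry alone thus set the second set apart. Reads can be divided between the gene and the entry inside it, and the part of that division in either level was not tested.

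**Figure D5:**
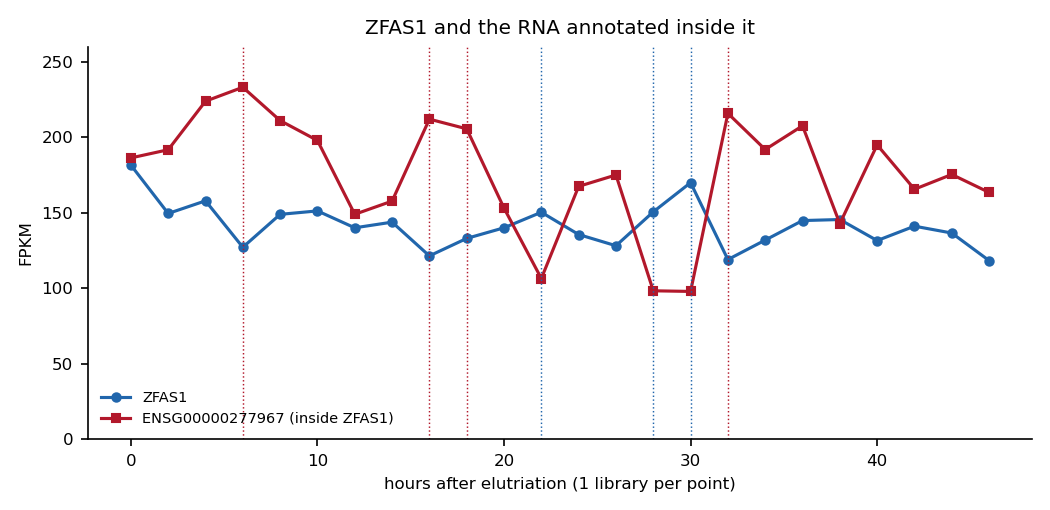
FPKM of ZFAS1 (blue circles) and of ENSG00000277967, annotated inside it (red squares), against hours after elutriation, with 1 library per point. Dotted red lines mark 6 h, 16 h, 18 h and 32 h, where the inner entry had 206 to 233 FPKM, and dotted blue lines 22 h, 28 h and 30 h, where it had 97.9 to 106 FPKM. At the other 17 hours it had 143 to 224 FPKM.

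Other genes overlap the hosts, and those with values here were picked for their position. SNHG3 shares its strand and part of its region with RCC1, the exchange factor of RAN, which had 114, 72.7, 68.3 and 100 FPKM from 14 h to 20 h and deviated by −0.59. Opposite to the hosts lie ZBTB37 (GAS5), ZNFX1 (ZFAS1), DIPK1B (SNHG7) and TRNAU1AP (SNHG12), with means of 3.43, 6.62, 6.53 and 32.0 FPKM. Whether the counting used strand is not given in the sources used here, so reads of opposite genes may not have been told apart. DIPK1B had 7.45, 3.08, 4.44 and 8.09 FPKM from 14 h to 20 h, low at the same hours as SNHG7. ZNFX1 was higher at 16 h and 18 h (8.32 and 9.23 FPKM) than at 14 h (5.14 FPKM), while ZFAS1 was not.

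The gene with the most similar profile to each host was sought in a pool of 7159 genes averaging 10 FPKM or more. The measure was the mean absolute difference in Z-score over 22 time points, with 16 h and 18 h left out, and the median distance of the pool was 0.983 to 1.14. ZFAS1 was nearest to RPL13A, a protein of the large ribosomal subunit (0.423), and 18 of its nearest 50 genes were ribosomal protein genes, of 78 in the pool. The nearest 50 held 11 such genes for SNHG8, 10 for SNHG15, 6 for SNHG5, 3 for SNHG6 and 0 for the other 5 hosts. The 22 time points keep the irregular hours 6 h, 22 h, 28 h, 30 h and 32 h. The ribosomal protein genes had median deviations of −0.21 at 6 h, −0.28 at 32 h and 0.30 at 28 h with 30 h. ZFAS1, SNHG8, SNHG15 and SNHG5 deviated in the same directions at 6 h, 32 h and 28 h with 30 h. The part of these libraries in the likeness was not tested. SNHG8 was nearest to LSM7, of the RNA-binding Lsm ring (0.429), and SNHG15 to NSUN5P2, a pseudogene (0.396).

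GAS5 was nearest to RABGGTB (0.390), a prenyltransferase subunit gene that is itself known as a snoRNA host. SNHG5 was nearest to H2AZ1, a histone variant (0.226), SNHG1 to BRD2, a bromodomain protein (0.294), and SNHG7 to BRPF1, of a histone acetyltransferase complex (0.280). SNHG3 was nearest to ELF2, an ETS factor (0.421), SNHG12 to MCAT, of mitochondrial fatty acid synthesis (0.452), and SNHG6 to ENSG00000267303 (0.292). Among the hosts, SNHG1 and SNHG7 were most alike (0.474) and SNHG5 and SNHG7 least (1.21).

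At 16 h and 18 h, which this measure left out, a host and its nearest gene could lie apart, as in 3 pairs picked after their values were seen. RPL13A deviated by −1.88 and ZFAS1 by −0.16, BRD2 by 1.13 and SNHG1 by −0.07, and H2AZ1 by −1.57 and SNHG5 by −0.64.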

How the data were processed

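RNA of 24 K562 samples, 1 per time point, was analysed. According to the study's methods and the submitters' processing notes, the authors aligned reads with STAR to GRCh37 and quantified and normalised them with Cufflinks2 and Cuffnorm. Versions, annotation, strandedness and RNA selection are not given in the sources used here. The deposited FPKM values were used unchanged. Each gene had 1 FPKM or more in at least 12 time points, a filter that precedes deposition. The second deposited table holds scores, which were used as an alternative. The labels do not name how the authors made them, but the study's methods and the identical sorted values of all columns fit Z-scores followed by quantile normalisation. FPKM corrects for length and for the size of the library, and how Cuffnorm set that size is not given in the sources used here. A rise of abundant RNAs can lower the values of others, and its extent was not tested.

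Columns were matched to samples by the hour in the labels. Of 12285 identifiers, 12180 were found in GENCODE 29 (GRCh38), used for transcript properties and gene overlaps, and 11434 had a symbol. Coordinates are given only for RefSeq promoters of GRCh38.p14. The read depth is unknown, so no counting error can be given.

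Deviations and day differences were taken on log2(FPKM + 1) for genes averaging 1 FPKM or more, with 2-fold as the threshold and no test at 16 h, 18 h or 32 h. Order in time used the JTK statistic with 100000 permutations over all genes, and days were compared with limma 3.58.1 in R 4.3.3, both Benjamini–Hochberg adjusted at 0.05. Other steps used Python 3.11.15, pandas 2.3.3 and statsmodels 0.14.6. Both tests were run on simulated data with planted changes and independent time points. That run checked the code and not the calls made here. The named genes are the 10 hosts, the snoRNA genes inside them, the nearest gene in profile to each host, and at most the 2 highest and 2 lowest of each list. Outside this rule, genes that overlap a host, MALAT1 and ENSG00000277967 are named as well. The host genes and the lists were chosen with earlier results of these data known. Alternatives were other pseudocounts, filters, scalings, thresholds, flanks, periods and sets of pairs.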

Additional observations from a re-analysis of the deposited data

How the results depend on the processing

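The 2-fold count at 16 h and 18 h was 3 host genes under a pseudocount of 0.1, no filter, centring, upper-quartile scaling and wider flanks, and 2 with the GC trend removed. A 1.5-fold threshold gave 5, and 2 at 32 h. The count ordered in time was 1 in the cleaned table, 0 with a 20 h period and 2 to 4 under the other 5 settings. The count that differed between days was 1 with all 12 pairs, 1 without the hour as a block, and 1 by an exact sign-flip permutation test, whose smallest possible p is 0.00195. It stayed at 2 under the other 4 settings.

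Alternatives chosen after seeing the data were leaving out each pair of hours in turn, which gave counts of 1 to 3, and 6 pairs without 6 h, 22 h, 28 h, 30 h and 32 h, which gave 0. SNHG1 was called without each pair in turn and not with 6 pairs (−0.30, limma adjusted p = 0.0727). Leaving out the irregular hours from the order in time, also chosen after seeing the data, gave 2. The direction between days turned in 4 host genes. With all 12 pairs it became 0.0069 on the log2 scale for SNHG7, 0.059 for SNHG5, 0.058 for SNHG12 and 0.14 for SNHG15, with 6 pairs 0.048 for SNHG12, and for SNHG5, with each pair left out in turn, it ran from −0.15 to 0.020, positive only without 8 h and 32 h. Of these, SNHG7 alone had been called. GAS5 at 16 h and 18 h turned to −0.12 after upper-quartile scaling and −0.34 with the GC trend removed. Without replicates or read depth, neither the technical error of a single value nor differences smaller than the spread between time points could be assessed.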
